A study of Mus musculus with 6 samples.

Results

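The 10 genes described here encode proteins of neutrophil granules and were taken by gene name from the 48733 named genes of 6 RNA-seq libraries. Each name belonged to 1 row in each table. Of the 10, 4 belong to the primary granules (*Mpo*, *Elane*, *Prtn3*, *Ctsg*) and 6 were placed with the secondary granules (*Ltf*, *Camp*, *Ngp*, *Lcn2*, *Mmp8*, *Chil3*). The libraries came from CC016/GeniUnc mice, a Collaborative Cross inbred strain, in 2 labelled groups of 3. The group labelled bone is RNA of femoral cortical bone from which marrow had been spun out. The group labelled osteoblasts is RNA of bone marrow stromal cells (BMSCs) plated from such marrow and grown for 8 days in ascorbic acid, beta-glycerophosphate and 10 nM dexamethasone. No other allele or treatment is given for either group, nor the age or sex of the mice. Marrow was removed by centrifugation. BMSCs were taken by adherence, then detached with trypsin and reseeded before differentiation. How many blood cells either preparation held is not stated and was not tested. In such bulk RNA, fewer cells of a type and less RNA per cell cannot be told apart.

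Neutrophils make their granules in sequence while they mature in the marrow. Primary (azurophil) granules form first, at the promyelocyte stage, and carry myeloperoxidase and serine proteases. Secondary (specific) granules form later, at the myelocyte and metamyelocyte stages, and carry lactoferrin, cathelicidins, lipocalin 2 and collagenase. The mRNAs are made while a granule type is being built and are mostly gone from mature blood neutrophils, so the proteins outlast them. PU.1 and members of the C/EBP family are the best known activators of these genes, with C/EBP epsilon needed for the secondary set.

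The labels were checked first against hemoglobin and against cell markers. *Hbb-bt*, a beta-globin gene, was above 1000 FPKM (sequenced fragments scaled to transcript length and library depth) in bone replicate 3 (34838) and in osteoblasts replicates 2 (34268) and 3 (48650). Bone replicates 1 and 2 had 7.05 and 3.58 FPKM of it. In osteoblasts replicate 1 it was at 3.43 FPKM, so no library lay near the threshold. The *Hbb-bt* feature also spans *Hbb-bs*, the neighbouring adult beta-globin gene. These 3 libraries with *Hbb-bt* above 1000 FPKM cut across the labels, and every library is named below by its deposited label. Whether a label was exchanged between libraries was not tested, and every value of osteoblasts minus bone below rests on the labels as deposited. *Sost*, which marks osteocytes embedded in bone, ranged from 15.8 to 22.7 FPKM in those 3 libraries. Elsewhere, bone replicates 1 and 2 included, it did not exceed 0.198 FPKM. *Dmp1*, another osteocyte gene, ran the other way, at 22.5 to 24.2 FPKM in those 3 libraries and 50.0 to 127 FPKM elsewhere. The summed osteocyte list given with the other markers went with *Dmp1*, which made up most of it elsewhere (50.0 of 57.1 FPKM in bone replicate 2). *Phex*, also on that list, overlapped. *Col1a1*, the main collagen gene of osteoblasts, was at 1499 to 3332 FPKM in all 6 libraries. *Bglap* and *Mepe* had no named feature and were not used here. Aligned depth, estimated from the coverage, was 2.03 to 3.39 Gb of sequence per library, so a 1 kb transcript with 3 read pairs would be listed at 0.133 to 0.221 FPKM. That floor covers counting error only.

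The stretch of 250 bases before the RefSeq transcription start (GRCm38.p6) is shown for a pair of genes of each granule type, to show the PU.1 letters that both types hold and the C/EBP letters found in secondary genes. Capitals mark GAGGAA (PU.1) and TTGCNNAA (C/EBP), each searched on both strands.

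*Elane*, chr10:79886062-79886311, plus strand: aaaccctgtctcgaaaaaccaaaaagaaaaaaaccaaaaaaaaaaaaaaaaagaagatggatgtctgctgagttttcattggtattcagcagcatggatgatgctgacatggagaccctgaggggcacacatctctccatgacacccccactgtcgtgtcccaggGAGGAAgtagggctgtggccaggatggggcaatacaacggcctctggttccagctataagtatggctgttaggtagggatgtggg

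*Ctsg*, chr14:56102575-56102824, minus strand: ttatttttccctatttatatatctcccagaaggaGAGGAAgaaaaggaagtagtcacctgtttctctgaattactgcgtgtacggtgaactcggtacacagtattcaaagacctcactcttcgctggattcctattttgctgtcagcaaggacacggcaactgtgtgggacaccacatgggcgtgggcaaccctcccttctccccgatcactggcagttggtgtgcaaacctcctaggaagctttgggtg

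*Ltf*, chr9:111019042-111019291, plus strand: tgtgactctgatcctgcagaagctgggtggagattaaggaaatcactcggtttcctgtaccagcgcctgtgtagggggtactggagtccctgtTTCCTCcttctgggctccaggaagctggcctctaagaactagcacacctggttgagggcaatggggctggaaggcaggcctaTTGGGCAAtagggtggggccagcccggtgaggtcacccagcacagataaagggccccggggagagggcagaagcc

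*Mmp8*, chr9:7558179-7558428, plus strand: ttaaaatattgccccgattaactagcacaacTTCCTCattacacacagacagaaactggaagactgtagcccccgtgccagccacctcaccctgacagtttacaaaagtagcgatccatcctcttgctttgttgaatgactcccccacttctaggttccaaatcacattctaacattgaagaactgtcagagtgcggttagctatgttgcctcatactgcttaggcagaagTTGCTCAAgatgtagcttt

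For each of the 10 genes but *Mmp8*, the deposited feature begins upstream of the RefSeq start and so reaches into this window. Some matches can therefore lie in transcribed sequence. The letters GAGGAA were found in this window of 4 of the 4 primary granule genes and 3 of the 6 secondary granule genes (*Ltf*, *Lcn2*, *Mmp8*), against 23.25% of 32851 promoters of the same length. The letters TTGCNNAA were found in 0 of the 4 primary and 4 of the 6 secondary granule genes (*Ltf*, *Ngp*, *Lcn2*, *Mmp8*), against 9.56% of the promoters. In *Ltf* the match lies 75 to 68 bases before the start, and in *Mmp8* 19 to 12 bases before it. In *Elane* and *Prtn3* the GAGGAA letters lie 85 to 80 and 95 to 90 bases before the start. A RUNX motif, TGTGGT, was found in *Ctsg* alone of the 10 genes, against 14.05% of the promoters. The same held for the TATA box letters, searched as TATAAA, against 12.4% of the promoters. In *Ctsg* these letters lie 237 to 232 bases before the start, read on the opposite strand. Other forms of the TATA box were not searched. The motifs searched do not overlap each other in the 4 sequences shown, a match is a description of letters and not of binding, and the *Camp* and *Chil3* windows held none of the 4 motifs.

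On GRCm38, as the deposited features give it, *Mpo* lies at chr11:87793581-87804413 on the plus strand. *Prtn3* (chr10:79874476-79883174) and *Elane* (chr10:79886247-79888215) both lie on the plus strand, and *Ctsg* (chr14:56099881-56105238) on the minus strand. Of the secondary granule genes, *Camp* (chr9:109847379-109849617, minus strand), *Ngp* (chr9:110419747-110423012, plus strand), *Ltf* (chr9:111019271-111042767, plus strand) and *Mmp8* (chr9:7558456-7568485, plus strand) share chromosome 9. *Lcn2* lies at chr2:32384633-32388252 on the minus strand. Values are for whole features, exons of all transcripts together. The *Mpo* and *Mmp8* features overlap the long noncoding RNAs *Gm34064* and *Gm31751*, and the *Prtn3* feature overlaps *Plppr3*. The library kit does not mark strand, so reads of overlapping genes cannot be told apart.

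The primary granule genes were high in the 3 libraries with *Hbb-bt* above 1000 FPKM and at or near 0 in the others. *Mpo*, which encodes the heme enzyme that makes hypochlorous acid, measured 0.364, 0.320 and 490 FPKM in bone replicates 1, 2 and 3. In osteoblasts replicates 1, 2 and 3 it measured 0.0264, 508 and 484 FPKM. The higher values were thus alike within 1.05 times across the labels, and the 2 labels overlapped.

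*Elane*, which encodes neutrophil elastase, was listed at 0 in bone replicates 1 and 2 and measured 423 FPKM in replicate 3. It was listed at 0 in osteoblasts replicate 1 and measured 515 and 429 FPKM in replicates 2 and 3. Against the floor of 3 read pairs per library on 1 kb, its lowest nonzero value was at least 1914-fold higher.

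*Prtn3*, the gene of proteinase 3, lies close to *Elane* on chromosome 10 and measured 0.280, 0.0666 and 139 FPKM in bone replicates 1, 2 and 3. Its values were 0.0729, 186 and 145 FPKM in osteoblasts replicates 1, 2 and 3. The 3 low values stand for about 1.00 to 4.76 read pairs on its transcript of 1025 bases, so they are at the limit of detection.

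*Ctsg*, which encodes the chymotrypsin-like protease cathepsin G, was listed at 0 in bone replicates 1 and 2 and measured 98.0 FPKM in replicate 3. It was listed at 0 in osteoblasts replicate 1 and measured 139 and 99.5 FPKM in replicates 2 and 3. Its lowest nonzero value was at least 443-fold higher than the same floor. It had the lowest level of the 4 primary genes in each library with *Hbb-bt* above 1000 FPKM.

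**Figure D1:**
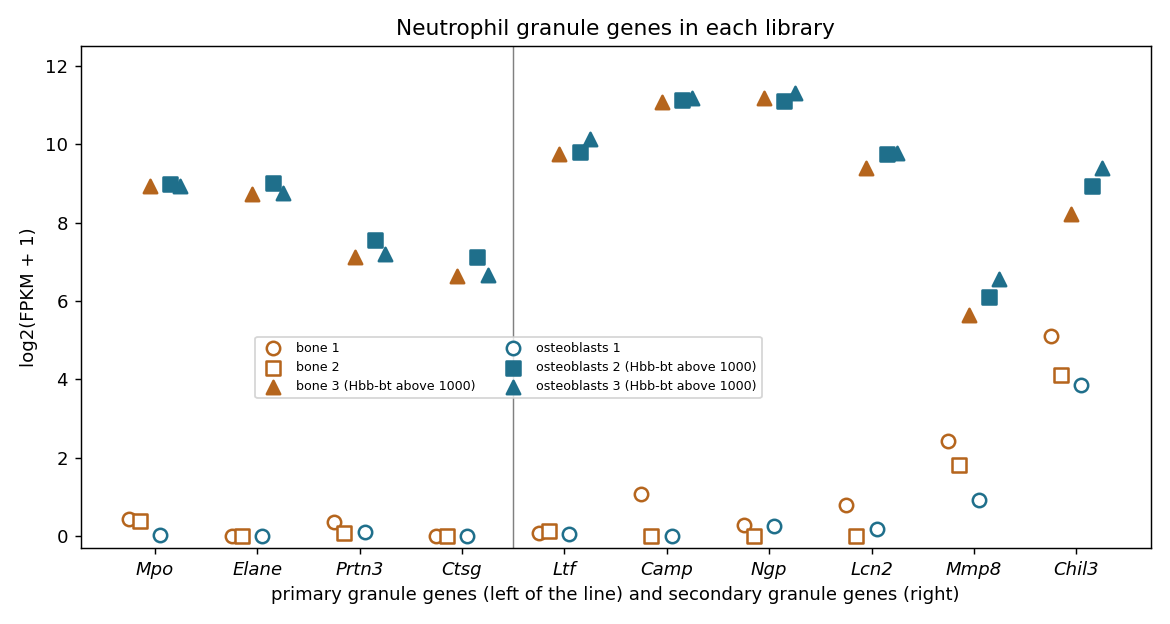
Level of each granule gene as log2(FPKM + 1) in the 6 libraries, with 1 point per library, colour for the deposited label, shape for the replicate number and filled points for *Hbb-bt* above 1000 FPKM. The filled points of bone replicate 3 and osteoblasts replicates 2 and 3 lie above the open points for each of the 10 genes, and the gap is narrowest for *Chil3* and *Mmp8*.

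The secondary granule genes reached the highest levels of the 10. *Ngp*, which encodes neutrophilic granule protein, a relative of the cathelicidins, measured 0.222, 0 and 2301 FPKM in bone replicates 1, 2 and 3. In osteoblasts replicates 1, 2 and 3 it measured 0.212, 2193 and 2528 FPKM. *Camp*, which encodes the antimicrobial cathelicidin, lies on the same chromosome, and its values were 1.10, 0 and 2159 FPKM in bone and 0, 2217 and 2296 FPKM in osteoblasts, in replicate order.

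*Ngp* ranked 36th, 35th and 26th among the 12548, 12589 and 12950 genes with at least 1 FPKM in bone replicate 3 and osteoblasts replicates 2 and 3. *Camp* ranked 39th, 33rd and 30th in the same libraries. Their order therefore changed from library to library. *Ngp* made up 27.2 to 30.8% of the summed FPKM of the 10 genes there, and *Camp* 26.3 to 28.9%.

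*Ltf*, the gene of the iron-binding protein lactoferrin, measured 0.0582, 0.110 and 851 FPKM in bone replicates 1, 2 and 3. In osteoblasts replicates 1, 2 and 3 it measured 0.0477, 890.5 and 1127 FPKM. The low values stand for about 1.77 to 4.43 read pairs on its transcript of 2742 bases.

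*Lcn2* encodes lipocalin 2, which binds bacterial siderophores and which osteoblasts and stromal cells can also make. It measured 0.742, 0 and 673 FPKM in bone replicates 1, 2 and 3. In osteoblasts replicates 1, 2 and 3 it was at 0.138, 856 and 868 FPKM. In the 3 libraries with little *Hbb-bt* it stayed below 1 FPKM. The part of osteoblasts and stromal cells in its values was not tested.

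*Mmp8*, which encodes neutrophil collagenase, was above the floor in every library. It measured 4.40, 2.52 and 49.0 FPKM in bone replicates 1, 2 and 3. Its values in osteoblasts replicates 1, 2 and 3 were 0.919, 67.3 and 94.1 FPKM. The low values stand for about 30.6 to 179 read pairs, and the lowest of the 3 high values was 11.1 times the highest of the others.

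*Chil3*, which encodes the chitinase-like protein Ym1, had the smallest gap. It measured 33.7, 16.5 and 297 FPKM in bone replicates 1, 2 and 3. The osteoblasts replicates 1, 2 and 3 had 13.5, 486 and 665 FPKM, so its lowest high value was 8.80 times its highest low value. The authors' feature for *Chil3* runs over 71954 bp on chromosome 3 (106147554 to 106219507, GRCm38) and also holds *Chil4*, whose coding sequence is 94.4% identical. Reads of the 2 genes cannot be told apart in it, and *Chil4* has no feature of its own.

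Macrophages can express *Chil3* too, and macrophage genes stood the other way round. All 6 macrophage markers on the list were higher in each of the 3 libraries with little *Hbb-bt* than in each of the others, against 16.9% of 12112 genes, and their summed level there was 1397 to 2762 FPKM, against 403 to 533 FPKM. None of the 6 was at 0 in any library. The part of macrophages in the *Chil3* and *Mmp8* values was not tested.

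Each of the 10 granule genes had its 3 highest values in the libraries with *Hbb-bt* above 1000 FPKM. The same held for 38.4% of the 12112 genes with a mean of at least 1 FPKM. With a gap of at least 10 times between the lowest high and the highest low value, the count was 9 of the 10 genes (all but *Chil3*), against 6.06% of those genes. Of the 10, 8 passed the minimum on the mean only through the 3 high libraries, so these counts describe the genes and support no test.

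Within a library the secondary genes were the more abundant set. The 4 primary genes summed to 1150, 1347 and 1158 FPKM in bone replicate 3 and osteoblasts replicates 2 and 3. The 6 secondary genes summed to 6330, 6710 and 7579 FPKM in the same libraries.

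The secondary sum was therefore 5.51, 4.98 and 6.54 times the primary sum. Taken gene by gene, the median of the secondary genes was 2.71, 2.52 and 3.47 times the median of the primary genes. The 2 sets overlapped in each library, since *Mmp8* lay below every primary gene in all 3, and the secondary gene was the higher in 18, 18 and 20 of the 24 possible pairs.

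The order of the 10 genes was nearly the same in the 3 libraries. *Ltf* took the third and *Lcn2* the fourth place in each, and *Prtn3*, *Ctsg* and *Mmp8* took the last places in that order in each. The places of *Ngp* and *Camp*, and those of *Mpo*, *Elane* and *Chil3*, were exchanged between libraries, so these neighbours did not differ beyond the spread.

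**Figure D2:**
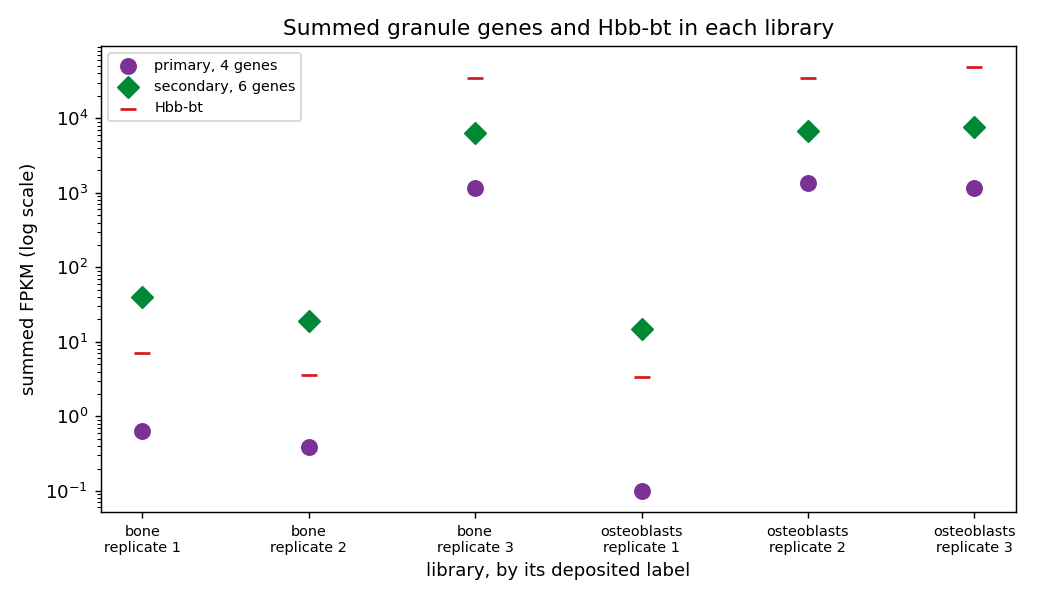
Summed FPKM of the 4 primary granule genes, of the 6 secondary granule genes and of *Hbb-bt* in each library, on a log scale, with 1 value per library and no error bar. The primary sum reached 1150 to 1347 FPKM and the secondary sum 6330 to 7579 FPKM in bone replicate 3 and osteoblasts replicates 2 and 3, while in the other libraries the primary sum stayed at or below 0.644 FPKM.

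The 10 genes together had low sums in bone replicates 1 and 2 and in osteoblasts replicate 1, of 40.9, 19.5 and 14.9 FPKM. *Chil3* made up 82.5, 84.5 and 90.5% of that signal and *Mmp8* 10.8, 12.9 and 6.16%. The primary sums were 0.644, 0.386 and 0.0993 FPKM, the last of which is below the floor.

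The ratio of the primary to the secondary sum was 0.0160 and 0.0202 in bone replicates 1 and 2, against 0.182, 0.201 and 0.153 in bone replicate 3 and osteoblasts replicates 2 and 3. Without *Chil3* it was 0.0986 and 0.147 in the first 2 and 0.191, 0.216 and 0.168 in the others. Leaving out *Chil3* thus raised the low ratios by more than the others.

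**Figure D3:**
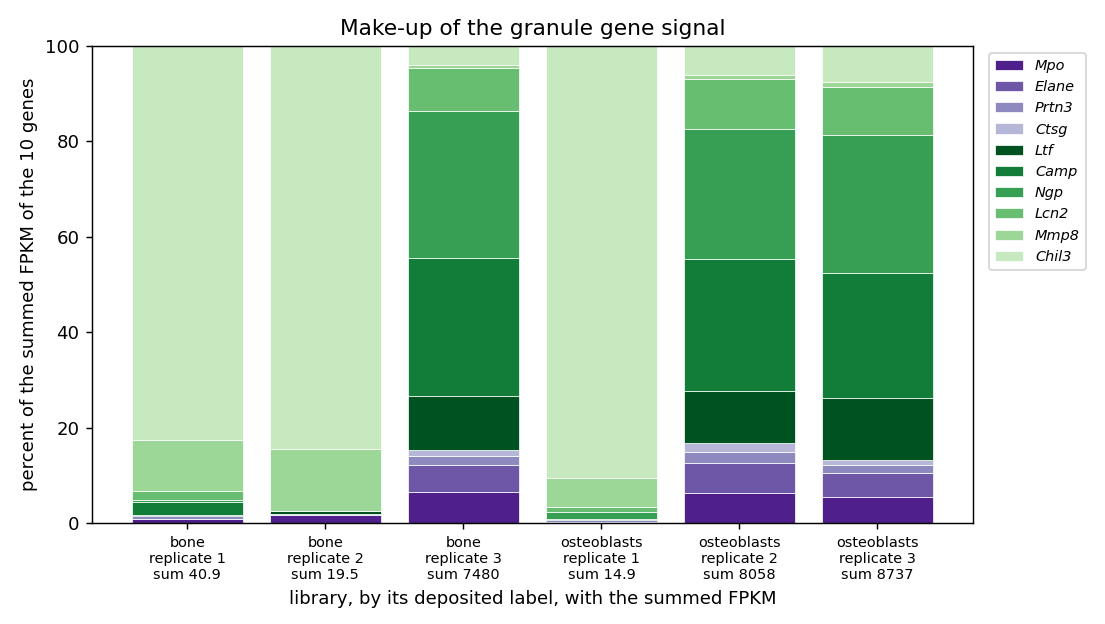
Share of each gene in the summed FPKM of the 10 granule genes, in percent, with 1 bar per library, the primary genes in purple, the secondary genes in green and the summed FPKM under each bar. *Chil3* takes 82.5 to 90.5% of the bar in the 3 libraries with little *Hbb-bt*, and *Ngp* and *Camp* take the largest shares in the other 3.

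Among the 3 libraries with *Hbb-bt* above 1000 FPKM, all 4 primary genes were highest in osteoblasts replicate 2. All 6 secondary genes were highest in osteoblasts replicate 3. The share of all genes that peak in each library was not computed, so these counts only describe the members. Relative to bone replicate 3, the primary genes were at 1.04 to 1.42 times in osteoblasts replicate 2 and at 0.988 to 1.05 times in osteoblasts replicate 3.

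The secondary genes were at 0.953 to 1.64 times in osteoblasts replicate 2 and at 1.06 to 2.24 times in osteoblasts replicate 3. *Mmp8* and *Chil3* spread the most, by 1.92 and 2.24 times between lowest and highest, and *Mpo* and *Camp* the least, by 1.05 and 1.06 times. These are single libraries, so no test bears on the difference.

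Other neutrophil genes did not all follow either set. *S100a9*, a calcium-binding protein of the neutrophil cytosol, measured 4775, 7072 and 8033 FPKM in bone replicate 3 and osteoblasts replicates 2 and 3. Its partner *S100a8* measured 3247, 2179 and 2327 FPKM, which is the opposite order for bone replicate 3. *Ly6g*, a surface marker of mouse neutrophils, was level at 36.6, 36.9 and 37.1 FPKM.

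**Figure D4:**
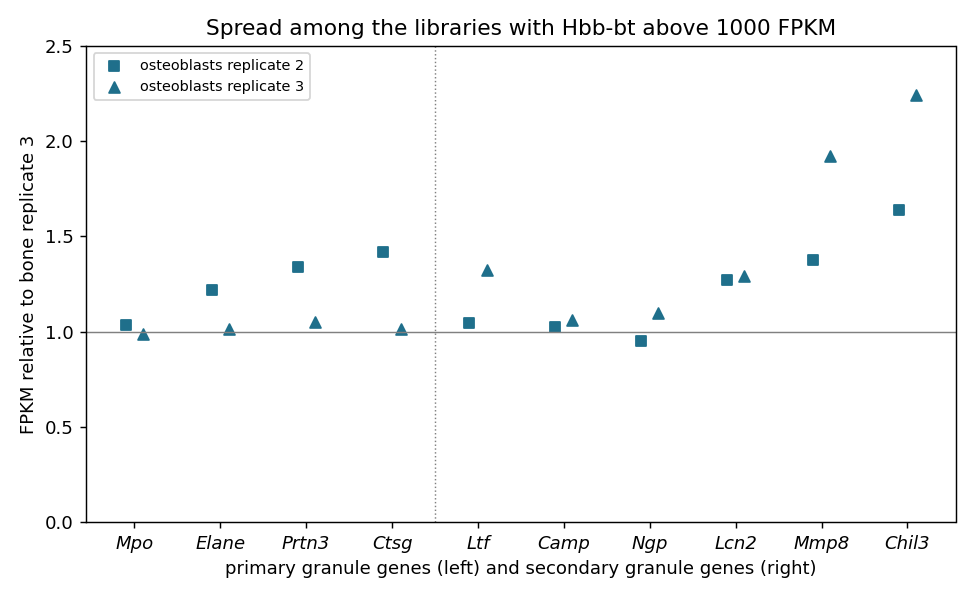
FPKM of each granule gene in osteoblasts replicates 2 (squares) and 3 (triangles) divided by its FPKM in bone replicate 3, on a linear axis from 0, with 1 value per library. The squares lie above the triangles for the 4 primary genes and below them for the 6 secondary genes, with *Chil3* reaching 2.24 and *Mmp8* 1.92.

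The design sets osteoblasts against bone, and on this comparison no granule gene passed the test. *Mpo* averaged 164 ± 283 FPKM (SD, n = 3) in bone and 331 ± 287 FPKM (SD, n = 3) in osteoblasts. *Ngp* averaged 767 ± 1328 and 1574 ± 1373 FPKM (SD, n = 3 each). The difference between the labels was smaller than either SD for both genes.

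On the scale of log2(FPKM + 1), the differences of osteoblasts minus bone ran from 1.24 (*Mmp8*, standard error 1.50) to 3.74 (*Ngp*, standard error 3.48), and the median of the 10 genes was 2.87. The median of all 12112 genes was 0.12, and it moved to -0.03 when FPKM were rescaled to the sum over named genes, where the median of the 10 genes was 2.71. limma (Benjamini-Hochberg) called 0 of the 10 genes and 0 of 12112 (0%) at an adjusted p of 0.05, with an adjusted p of 0.999 for each of the 10. At an unadjusted p under 0.05, limma had 0 of the 10 genes and 17 of the 12112 (0.14%). The values of the 2 labels overlapped for each of the 10 genes, whereas they did not overlap for 0.916% of all genes.

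The calls changed when 1 library was left out. Without osteoblasts replicate 1, limma called 10 of the 10 granule genes higher in osteoblasts, against 312 of 12362 genes (2.52%), with log2 differences of 3.04 to 7.38 and adjusted p of 0.00149 to 0.0242. That library had 3.43 FPKM of *Hbb-bt*, and leaving it out leaves only libraries with *Hbb-bt* above 1000 FPKM under the label osteoblasts. Without bone replicate 3, the median log2 difference of the 10 genes was 5.74. All 10 then had an unadjusted p under 0.05 from limma, as did 1418 of all 11890 genes tested. After adjustment limma called 0 of the 10, the lowest adjusted p being 0.0547.

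The log2 ratio of the primary to the secondary sum, with 1 FPKM added to each, averaged -3.66 ± 1.11 in bone (SD, n = 3). In osteoblasts it averaged -2.96 ± 0.80 (SD, n = 3). The latter includes osteoblasts replicate 1, whose primary sum is below the floor and whose log2 ratio of -3.85 rests on the added 1 FPKM. The difference of 0.70 was smaller than either SD, and no test was run on it. Without that library it was 1.14. Without *Chil3* the difference fell to 0.04.

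Further genes of the granule pathway were taken from fixed lists, and limma called 0 genes of any list between the labels, with 0 at an unadjusted p under 0.05. Counts below are of genes with a mean of at least 1 FPKM that were higher in each library with *Hbb-bt* above 1000 FPKM, set against 38.4% of all genes. Rows without a gene name held 71.5 and 65.0% of the FPKM in bone replicate 2 and osteoblasts replicate 1. In the other libraries they held 27.4 to 30.7%. The counts of these lists were not repeated with FPKM rescaled to named genes, so narrow gaps can rest on scaling. Of the other genes of primary granules and lysosomes, *Prss57*, a serine protease of the elastase family, was higher, at 11.8 to 15.2 FPKM against 0. *Lyz2*, the lysozyme of neutrophils and macrophages, went the other way, with 1280 to 1596 FPKM in those libraries and 3955 to 7332 FPKM in the others. *Bpi*, whose protein binds bacterial endotoxin, was at or below 0.0934 FPKM throughout.

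Of 7 other genes of secondary granules, 3 were higher. *Cd177*, a surface and granule glycoprotein of neutrophils, measured 286 to 306 FPKM against at most 0.731 FPKM. *Chil1*, a chitinase-like relative of *Chil3*, measured 52.0 to 64.9 FPKM and was listed at 0 in the other 3 libraries. *Hp*, the gene of haptoglobin, overlapped, with 328 to 398 FPKM against 69.5 to 351 FPKM, and *Ptx3* was lower.

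Of 5 genes of tertiary granules and secretory vesicles, 2 were higher and 2 lower. *Mmp9*, the gelatinase of tertiary granules, measured 257 to 308 FPKM against 2.96 to 64.8 FPKM. *Fcnb*, the neutrophil ficolin, measured 97.1 to 107 FPKM and was listed at 0 elsewhere. *Slc11a1* and *Adam8*, which macrophages also express, were lower, at 21.5 to 23.4 FPKM against 78.9 to 133 FPKM and at 25.1 to 31.5 FPKM against 117 to 213 FPKM.

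Of 6 genes that process, pack or inhibit granule proteases, 5 were higher. *Srgn*, the proteoglycan that packs granule proteases, measured 38.2 to 69.7 FPKM against 9.44 to 16.7 FPKM. *Slpi*, an inhibitor of elastase, measured 36.1 to 53.6 FPKM against 3.04 to 6.20 FPKM. *Ctsc*, the protease that activates elastase, proteinase 3 and cathepsin G, was the lower one, at 8.65 to 15.1 FPKM against 27.3 to 61.5 FPKM.

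Of 6 transcription factors of granule genes, 4 were higher. *Cebpe*, the C/EBP factor of the secondary granule stage, measured 61.3, 65.7 and 61.8 FPKM in bone replicate 3 and osteoblasts replicates 2 and 3 and at most 0.111 FPKM elsewhere. *Spi1*, which encodes PU.1, was higher by a narrow margin in FPKM as deposited, with 48.4 to 50.8 FPKM against 18.7 to 38.6 FPKM. *Cebpa* overlapped and was uneven, with 79.7, 35.2 and 1.76 FPKM in bone replicates 1, 2 and 3 and 3.56, 22.9 and 19.3 FPKM in osteoblasts replicates 1, 2 and 3.

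Of 3 kept family relatives of the granule genes, 2 were higher in the same libraries. *Epx*, the eosinophil peroxidase, was below its relative *Mpo* there: it measured 96.9 to 136 FPKM in the 3 high libraries and was listed at 0 in the others. *Mcpt8*, a basophil protease, measured 14.2 to 16.3 FPKM against 3.13 to 3.51 FPKM. *Mmp13*, the collagenase of osteoblasts and chondrocytes, was higher where *Mmp8* was lower, with 98.7 to 168 FPKM against 35.8 to 37.4 FPKM. *Lpo* was listed at 0 in all 6 libraries, and *Trf* and *Chil4* had no named feature.

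Markers of erythroid cells and further markers of neutrophils moved with the granule genes, while the macrophage markers given above went the other way. The erythroid gene *Alas2* and the 3 measured neutrophil markers, *S100a8*, *S100a9* and *Ly6g*, were each higher in the libraries that *Hbb-bt* marks. *Alas2*, the first enzyme of heme synthesis in erythroid cells, measured 732 to 910 FPKM there and at most 0.208 FPKM in the others. Neutrophil markers summed to 8058 to 10398 FPKM and to 0.115 to 3.76 FPKM.

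Of 4 kept genes of eosinophils, basophils and mast cells, 4 were higher, and that list summed to 1211 to 1654 FPKM against 4.73 to 7.19 FPKM. Of 5 kept osteoblast genes, 0 were higher and 2 lower in those 3 libraries (*Ibsp* and *Alpl*), the latter against 16.9% of all genes. *Alpl* was lower by a narrow margin, at most 94.1 FPKM against at least 95.4 FPKM. *Runx2*, *Sp7* and *Col1a1* overlapped. The osteoblast list, in which *Col1a1* and *Ibsp* had the highest means, summed to 1676 to 2404 FPKM against 2769 to 4530 FPKM. Of 4 kept osteocyte genes, 1 was higher (*Sost*) and 1 lower (*Dmp1*). The osteocyte list summed to 48.2 to 53.5 FPKM against 57.1 to 135 FPKM, most of the latter from *Dmp1*. Of 3 kept stromal genes, 0 were higher and 1 lower (*Pdgfrb*), while *Lepr* and *Thy1* overlapped. The stromal list, in which *Pdgfrb* had the highest mean, summed to 27.6 to 28.7 FPKM against 30.5 to 81.9 FPKM. The part of these cells in the granule gene values was not tested.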

How the data were processed

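Total RNA of 3 bone and 3 osteoblast samples was sequenced by the authors as paired reads of 75 bp, aligned to GRCm38 with HISAT2 2.0.5 and quantified with StringTie 1.3.3 (versions from the submitters' processing notes). The authors deposited FPKM for each feature of each library, with TPM, which carry the same information set to a fixed library sum, and a coverage signal per base without depth scaling. No counts were used, so depth was inferred from how coverage scales with FPKM within a library (the modal ratio). Read pairs per gene were estimated from FPKM, that depth and the longest GENCODE vM1 transcript.

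Rows sharing a gene name were summed, and rows without a name were left out; they held 27.4 to 71.5% of the FPKM. Genes with a mean of at least 1 FPKM (12112) were tested between the labels with limma 3.58.1 in R 4.3.3 (trend, Benjamini-Hochberg) on log2(FPKM + 1), which understates changes of low genes. limma was checked on simulated data with independent noise, which did not hold the split across the labels seen here, so the check supports no result. Tables were handled with pandas 2.3.3 under Python 3.11.15, and coding sequences were aligned with Biopython 1.88. No test was run on groups formed from *Hbb-bt*: it split the libraries only for the counts and ranges described. The 10 genes, the other lists and the rule for named genes (each member, and the 3 genes of highest mean in each list, with relatives of members) were chosen with earlier results of these data known. Some list genes, and the counts and sums that need them, are not reported here. A few list genes outside that rule were named after their values were seen. Alternatives were another pseudocount, unit, scaling or filter, no trend, the replicate block, fewer genes and leaving out each library. The deviations of same-numbered libraries from their label means correlated at 0.84, -0.75 and 0.83 over genes, so the numbers were not taken to pair the libraries. The series' design text calls the samples biological replicates and the methods give 3 mice, but which libraries share a mouse is not stated. Promoter sequences are those of RefSeq on GRCm38.p6, and all 10 genes matched.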

Additional observations from a re-analysis of the deposited data

How the results depend on the processing

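The number of granule genes called between the labels stayed at 0 under 14 of 16 alternatives. It was 8 with the replicate block and ranged from 0 to 10 when a library was left out, with 10 reached without osteoblasts replicate 1. Over all genes the count was 0 by limma, 49 with the replicate block (46 higher and 3 lower in osteoblasts), and 0 to 360 when a library was left out, with 3 without bone replicate 3 and 360 (312 higher, 48 lower) without osteoblasts replicate 1. With the replicate block the 8 genes had adjusted p of 0.000341 to 0.0268 from limma, *Mmp8* and *Chil3* were not called, and the libraries share only a number, with no pairing in the labels. Under the other 14 alternatives the adjusted p of the 10 genes lay between 0.0547 and 1.00, and no difference changed sign. Each of the 10 genes stayed higher in the libraries with *Hbb-bt* above 1000 FPKM with TPM and with FPKM rescaled to named genes. The same count with a threshold of 100 or 10000 FPKM was fixed in advance, since these mark the same libraries. It was also fixed without each library, a check chosen after seeing the data, since leaving a library out cannot close a gap.

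The difference in the log2 ratio of primary to secondary sums stayed within 1.11, the larger label SD, of 0.70 under 16 of 16 alternatives. That SD is larger than the difference itself, so a lost or reversed difference also counts as within it. The replicate block, among the 16, cannot change this value. The difference ran from -0.10 with the mean of log2 values per gene to 1.297 without bone replicate 3. The ratio per library depended on the summary: as a ratio of medians it was 0.369, 0.397 and 0.288 in bone replicate 3 and osteoblasts replicates 2 and 3. In bone replicate 2 it was 0.604 as a ratio of medians, from values at the floor. Values under about 0.2 FPKM rest on a few read pairs, so for *Elane*, *Ctsg*, *Prtn3* and *Ltf* depth limits what can be said of the 3 low libraries. The same holds in part for *Mpo*, *Camp*, *Ngp* and *Lcn2*, each of which was at 0 or under 0.2 FPKM in some low library.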
